A study of Mus musculus with 24 samples.

Results

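Guanylate-binding proteins (GBPs) and immunity-related GTPases (IRGs) are enzymes that cells make when interferon reaches them. The genes followed here are 10 mouse members of these families, Gbp2, Gbp3, Gbp5, Gbp6, Gbp7, Gbp9, Irgm1, Irgm2, Igtp and Iigp1, taken by symbol from the 46983 genes of the count tables. They were measured in parietal cortex of C57BL/6 mice in 4 groups of 6 animals: intact mice of 3 months (young controls), intact mice of 18 months (aged controls), and mice of each age 3 days after their middle cerebral artery was closed for good (MCAO). In this stroke model the vessel is reached through a drilled hole, coagulated and cut under isoflurane, and the infarct left in parietal cortex is small. The controls were not operated, so surgery and ischaemia cannot be told apart here. RNA was read at the 3′ end of transcripts (QuantSeq). Levels are in CPM, counts scaled to a common total of gene counts, after TMM scaling, which sets libraries side by side by the bulk of their genes. Samples were pieces of tissue, so fewer cells of a type and less RNA per cell cannot be told apart.

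Both families bind and split GTP and are switched on by interferons. Interferon gamma acts through gamma-activated sites, and type I interferons through interferon-stimulated response elements. GBPs are large GTPases of the dynamin superfamily that gather on the membranes of bacteria and of vacuoles that hold parasites. In mice, effector IRGs such as Iigp1 coat such vacuoles and break them, while the regulatory IRGs Irgm1, Irgm2 and Igtp sit on the cell's own organelles and keep the effectors from acting there. In the brain, microglia, astrocytes, endothelium and invading leukocytes can all make them.

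All but Iigp1, described further on, lie on chromosomes 3, 5 and 11 of the GRCm38 genome, per the GENCODE M21 annotation, and all 10 are annotated as protein coding. Gbp5 (chr3:142493978-142522344), Gbp7 (chr3:142530342-142550149), Gbp3 (chr3:142560026-142573209) and Gbp2 (chr3:142620602-142638008) lie in this order on the plus strand of chromosome 3. Another GBP gene, Gbp2b, lies between Gbp3 and Gbp2. Gbp9 (chr5:105077630-105139539) and Gbp6 (chr5:105270702-105293698) are on the minus strand of chromosome 5. Irgm1 (chr11:48861968-48871683, minus strand), and Igtp (chr11:58199556-58207591) and Irgm2 (chr11:58199618-58222782), both on the plus strand, are on chromosome 11. Igtp and Irgm2 share 162 exonic bases, so reads there cannot be assigned to one of them. At the 3′ end, where RNA was read, 0% of the 50-base stretches in the last 300 bases of either gene's transcripts occur in another gene.

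Promoter sequences from RefSeq (GRCm38.p6, 250 bases before to 50 after the start site) were matched for Gbp2, Gbp3, Gbp5, Gbp7, Irgm1, Irgm2 and Igtp. Each of these 7 held the core of the interferon-stimulated response element, searched as GAAANNGAAA on both strands, which 1131 of all 32851 promoters (3.44%) hold. The gamma-activated site, searched as TTCNNNGAA (a motif that reads the same on both strands), was present in 4 of the 7, Gbp5, Gbp7, Irgm2 and Igtp, against 8.3% of all promoters, and both motifs together in the same 4 against 0.454%. The windows around the matches are printed below for 6 of the 7 in the direction of the gene, because the members are compared by whether their transcripts moved together after stroke. Capitals mark the letters of the matched motifs, and a response element on the opposite strand therefore reads from TTTC to TTTC.
Gbp2, chr3:142620589-142620628, plus strand: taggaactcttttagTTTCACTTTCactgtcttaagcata
Gbp3, chr3:142559984-142560029, plus strand: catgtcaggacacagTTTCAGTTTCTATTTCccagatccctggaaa
Gbp7, chr3:142530215-142530307, plus strand: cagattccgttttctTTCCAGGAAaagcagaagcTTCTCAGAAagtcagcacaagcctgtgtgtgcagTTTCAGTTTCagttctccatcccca
Irgm1, chr11:48871420-48871465, minus strand: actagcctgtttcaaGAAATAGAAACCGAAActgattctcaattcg
Irgm2, chr11:58214887-58214937, plus strand: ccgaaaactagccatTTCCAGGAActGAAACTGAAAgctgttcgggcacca
Igtp, chr11:58199496-58199546, plus strand: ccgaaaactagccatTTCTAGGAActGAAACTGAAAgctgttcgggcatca
The window of Gbp5, whose 3 matches lie far apart, is not printed. Gbp3 and Irgm1 each held 2 overlapping response elements. The Irgm2 and Igtp windows, which belong to different start sites, were the same at 49 of 51 bases (96.1%). In both, the gamma-activated site starts 11 bases before the response element, a spacing found on the gene's strand in 5 of the 32851 promoters (0.0152%). They are those of Irgm2, Igtp, the IRG genes Tgtp1 and Tgtp2, and Gm12185. The last shares 223 exonic bases with Tgtp1 and is not in the gene lists used here. A match describes the letters and shows neither binding nor use.

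**Figure D1:**
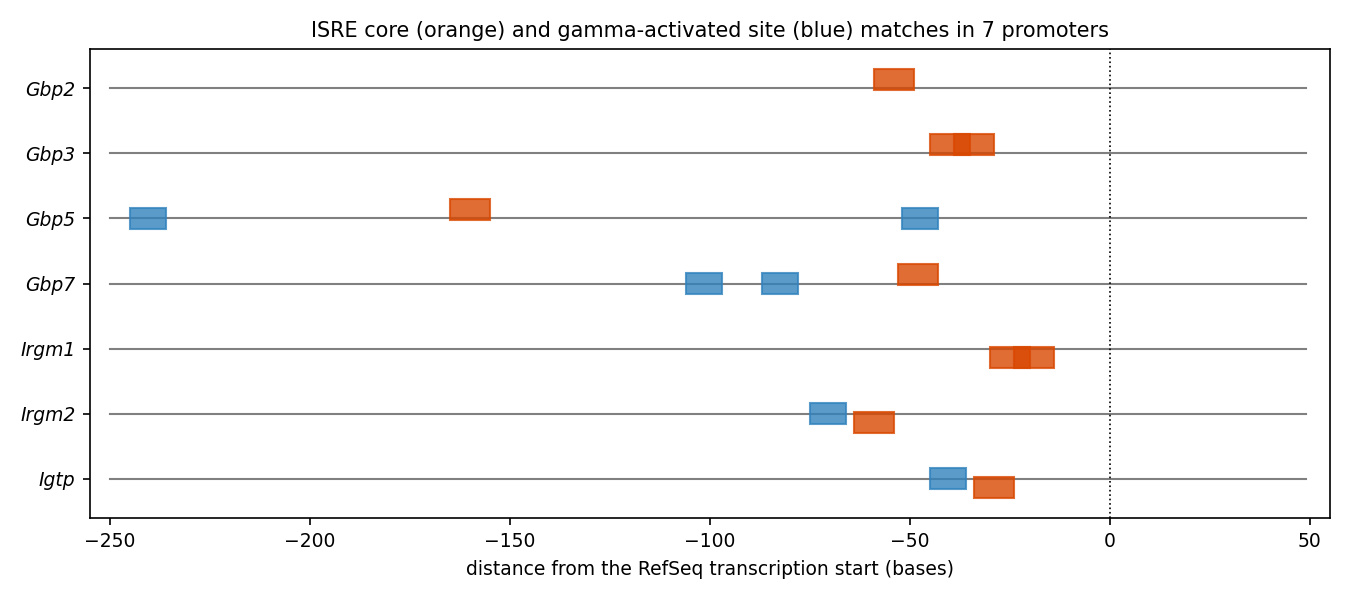
Matches to the interferon-stimulated response element core (orange) and the gamma-activated site (blue) along the 7 RefSeq promoters, against distance from the start site in bases. Orange boxes above a line are on the strand opposite to the gene and those below it on the gene's strand. Each of the 7 promoters holds at least 1 orange box, and Gbp5, Gbp7, Irgm2 and Igtp also hold a blue one.

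The libraries held between 3299128 and 13082872 gene counts. Some libraries stood apart within their groups. Microglial transcripts summed to 1705 and 1429 CPM in libraries A and C of young MCAO and to at most 901 CPM in the other libraries of that group. Choroid plexus transcripts summed to 803 CPM in library D of the young controls and 1443 CPM in library C of young MCAO, where the medians of their groups were 7.49 and 16.5 CPM. Haemoglobin and related red cell transcripts reached 393, 111 and 1275 CPM in libraries C, E and F of aged MCAO. All 8 neuronal and all 8 microglial markers were detected in every library. This would hold for other pieces of brain too, so it does not test the parietal cortex label. Where leaving out the libraries that stood apart ended a call named here, the value without them is given beside it.

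Most of these genes rose after stroke at both ages, and their log2 changes were larger in the aged mice, though no single gene's difference between the ages passed the threshold with edgeR. Of the 10 genes, 9 passed the filter on low counts and were tested, and Gbp6 was not. At 3 months 6 of the 9 rose after MCAO (edgeR quasi-likelihood test, Benjamini-Hochberg adjusted p under 0.05 over 14599 genes), where 20.1% of all genes tested rose and 17.3% fell (37.3% in either direction). At 18 months 9 of 9 rose, where 23.7% of all genes rose and 21.5% fell (45.2% in either direction). The median log2 change of the 9 was 1.46 at 3 months and 2.40 at 18 months, beside -0.04 and -0.03 over all genes tested. With libraries scaled by their total gene counts, the genes rising and falling numbered 3722 and 1211 at 3 months and 4134 and 2145 at 18 months, in place of 2930 and 2519, and 3462 and 3143. With spike-in scaling they numbered 1411 and 6178, and 2007 and 4119, and the median log2 change of all genes was -0.49 and -0.32. The same 6 and 9 members were called under each of these scalings.

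Transcripts of other cells moved with them, and their part in the rise was not tested. Microglial markers rose in 8 of 8 cases at both ages (median log2 change 1.60 at 3 months and 1.40 at 18 months), monocyte and macrophage markers in 6 of 6 (4.84 and 5.71) and neutrophil markers in 6 of 6 (5.29 and 4.78). Of 8 endothelial markers, 6 rose at 3 months and 7 at 18 months, and of 6 fibroblast markers 5 at each age. Of 8 astrocyte markers, 3 rose and 2 fell at 3 months and 4 rose and 2 fell at 18 months. Of 8 markers of neurons, 5 fell in young mice and 7 in aged mice.

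**Figure D2:**
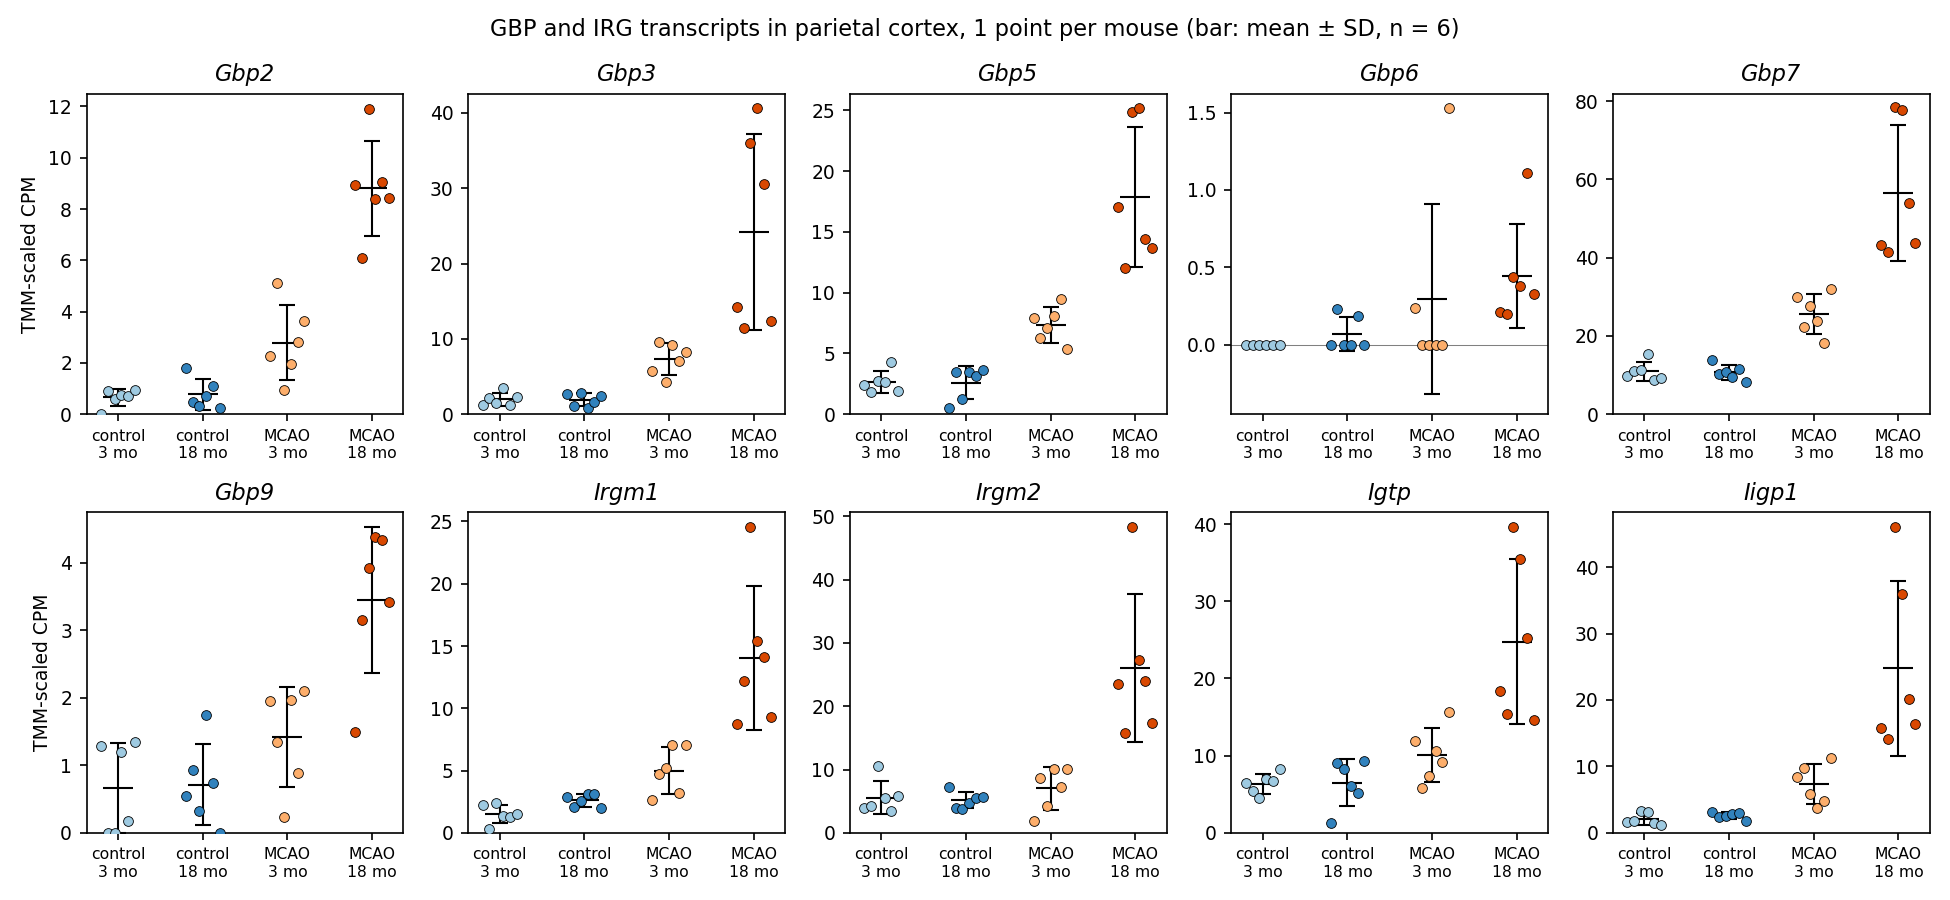
TMM-scaled CPM of the 10 genes in each of the 24 libraries, 1 point per mouse, with the mean and SD of each group of 6. The aged MCAO libraries lie above all aged control libraries in every panel but those of Gbp6 and Gbp9.

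Among the GBPs of chromosome 3, Gbp7 had the most counts behind its values. In mouse macrophages its product brings oxidase and autophagy proteins to bacteria. Its level ran from 8.66 to 15.4 CPM (median 10.5) in young controls and from 8.29 to 13.8 CPM (median 10.5) in aged controls. After MCAO it ran from 18.3 to 32.0 CPM (median 25.9) at 3 months and from 41.4 to 78.5 CPM (median 49.0) at 18 months. The 2 control groups overlapped, all young MCAO libraries were above them, and all aged MCAO libraries were above those, with C and D highest. The log2 change was 1.23 ± 0.19 at 3 months (edgeR adjusted p = 9.48e-06) and 2.40 ± 0.19 at 18 months (edgeR adjusted p = 7.7e-11), the error being the standard error.

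Gbp2, which in mice is needed for the control of Toxoplasma, was scarce without injury. Young controls held 0 to 0.957 CPM (median 0.734), with no count in library A, and aged controls 0.244 to 1.80 CPM (median 0.581). After MCAO the range was 0.942 to 5.13 CPM (median 2.54) at 3 months and 6.11 to 11.9 CPM (median 8.70) at 18 months. Library C of young MCAO lay within the control range, while no aged MCAO library overlapped any other group. Gbp2 rose by 2.06 ± 0.44 at 3 months (edgeR adjusted p = 0.000495) and by 3.38 ± 0.39 at 18 months (edgeR adjusted p = 5.56e-08).

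Gbp3, whose product is also seen at parasite vacuoles in mouse cells, had the highest spread of this cluster relative to its mean after stroke in aged mice (coefficient of variation 53.9%). It lay at 1.26 to 3.43 CPM (median 1.80) in young controls and 0.875 to 2.85 CPM (median 2.05) in aged controls. After MCAO it lay at 4.24 to 9.59 CPM (median 7.63) at 3 months and 11.4 to 40.6 CPM (median 22.4) at 18 months. The aged animals fell into libraries C, D and E at 36.0, 40.6 and 30.5 CPM and libraries A, B and F at 14.3, 11.4 and 12.3 CPM, all above every young library. The log2 change was 1.84 ± 0.37 at 3 months (edgeR adjusted p = 3e-04) and 3.67 ± 0.36 at 18 months (edgeR adjusted p = 4.77e-09), the highest of the 9 genes at that age.

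Gbp5, which in mouse macrophages promotes assembly of the NLRP3 inflammasome, was at 1.81 to 4.33 CPM (median 2.54) in young controls. Aged controls had 0.540 to 3.66 CPM (median 3.30). After MCAO it was at 5.36 to 9.49 CPM (median 7.47) at 3 months and 12.0 to 25.1 CPM (median 15.7) at 18 months. The MCAO groups overlapped neither the controls nor each other. Gbp5 rose by 1.46 ± 0.30 at 3 months (edgeR adjusted p = 0.000336) and by 2.76 ± 0.29 at 18 months (edgeR adjusted p = 1.35e-08).

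The 2 GBPs of chromosome 5 were near the lower limit of detection. Gbp9 was at 0 to 1.34 CPM (median 0.687) in young controls and 0 to 1.75 CPM (median 0.638) in aged controls. After MCAO it was at 0.235 to 2.10 CPM (median 1.64) at 3 months and 1.49 to 4.38 CPM (median 3.67) at 18 months. Every group overlapped its neighbour, and library A of aged MCAO, at 1.49 CPM, was the one that fell within the control range. The log2 change was 0.95 ± 0.55 at 3 months (edgeR adjusted p = 0.181) and 2.17 ± 0.51 at 18 months, where it rose (edgeR adjusted p = 0.000915). In fits of the compared groups alone, Gbp9 fell under the filter on low counts at both ages and Gbp2 at 3 months.

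Gbp6 had 33 counts over all 24 libraries: 0 in young controls, 2 in aged controls, 11 in young MCAO and 20 in aged MCAO. Of the 11 in young MCAO, 8 were in library F, and 4 libraries of that group had none, whereas every aged MCAO library had at least 1. Against a floor of 3 counts over the young control group, the pooled level after MCAO was 2.89-fold at 3 months. That value rests mostly on library F and leaves out the spread between animals, so it is not a lower bound. At 18 months the pooled ratio was 7.45, with a 95% interval of 1.81 to 65.7 that covers counting error only. Gbp6 shares 29% of its exonic bases with the annotated gene Gm43302, which had 0 counts. In both of its transcripts, each 50-base stretch of the last 300 bases also occurs in Gbp10, Gbp4, Gbp9 or Gm43302. Reads from there cannot be assigned to Gbp6 alone, so its level is uncertain.

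Of the 4 IRGs, 2 rose at 3 months and 4 at 18 months. Irgm1, a regulatory IRG whose loss in mice impairs defence against intracellular bacteria, was at 0.302 to 2.40 CPM (median 1.44) in young controls and 1.95 to 3.15 CPM (median 2.70) in aged controls. After MCAO it was at 2.65 to 7.08 CPM (median 4.93) at 3 months and 8.74 to 24.6 CPM (median 13.2) at 18 months. The MCAO libraries were above all controls of their age, and aged MCAO was above young MCAO throughout. Irgm1 rose by 1.66 ± 0.34 at 3 months (edgeR adjusted p = 0.00031) and by 2.40 ± 0.30 at 18 months (edgeR adjusted p = 1.79e-07).

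Irgm2, another regulatory IRG, was at 3.43 to 10.5 CPM (median 4.87) in young controls and 3.80 to 7.19 CPM (median 5.13) in aged controls. After MCAO it was at 1.79 to 10.1 CPM (median 7.95) at 3 months and 15.8 to 48.4 CPM (median 23.7) at 18 months. The young groups overlapped, with library A of young MCAO the lowest of all 24, while no aged MCAO library overlapped any other group. Its log2 change was 0.33 ± 0.36 at 3 months, with a 95% interval of -0.40 to 1.06 (edgeR adjusted p = 0.497), and the sign turned with spike-in scaling, to -0.05. At 18 months it rose by 2.32 ± 0.34 (edgeR adjusted p = 2.84e-06).

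Igtp, the regulatory IRG also called Irgm3, was at 4.49 to 8.23 CPM (median 6.56) in young controls and 1.26 to 9.27 CPM (median 7.18) in aged controls. After MCAO it was at 5.80 to 15.7 CPM (median 9.87) at 3 months and 14.6 to 39.7 CPM (median 21.8) at 18 months. Young MCAO overlapped both control groups and reached into aged MCAO with library F, at 15.7 CPM. Its log2 change was 0.65 ± 0.32 at 3 months (edgeR adjusted p = 0.115) and 1.97 ± 0.32 at 18 months, where it rose (edgeR adjusted p = 1.21e-05). Its 3-month change passed the threshold in a fit of the young groups alone (0.70, edgeR adjusted p = 0.0317) and without library A of the aged controls (0.68, edgeR adjusted p = 0.0446).

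Iigp1 (chr18:60376027-60392634, plus strand) is the effector IRG among the members. It was at 1.15 to 3.29 CPM (median 1.73) in young controls and 1.71 to 3.06 CPM (median 2.67) in aged controls. After MCAO it was at 3.73 to 11.3 CPM (median 7.12) at 3 months and 14.2 to 46.0 CPM (median 18.3) at 18 months. None of these MCAO libraries overlapped the controls or the other age. Iigp1 rose by 1.82 ± 0.35 at 3 months (edgeR adjusted p = 0.000192) and by 3.25 ± 0.33 at 18 months (edgeR adjusted p = 7.36e-09). At 3 months the effector thus passed the threshold with Irgm1, and the regulators Irgm2 and Igtp did not. The difference between these genes' changes was not tested.

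Counted by overlap, every MCAO library exceeded every control library for 5 of the 9 genes at 3 months (Gbp3, Gbp5, Gbp7, Irgm1 and Iigp1), where this held for 11.1% of all genes tested. At 18 months it held for 8 of the 9, Gbp9 being the exception, beside 16% of all genes.

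In cortex without injury the members did not separate by age. Of the 9, 0 passed the threshold between aged and young controls (edgeR; 0 with DESeq2), where 0.603% of all genes did (0.349% higher and 0.253% lower at 18 months), and the median log2 difference was -0.03. At an unadjusted p under 0.05, 1 of 9 passed, Irgm1, with 0.80 ± 0.36 (edgeR unadjusted p = 0.0373, adjusted 0.502), beside 9.09% of all genes. Of the other 8, 3 were above 0 and 5 below. Every aged control library exceeded every young one for 0 of the 9, beside 0.925% of all genes. The widest interval was that of Gbp9, -1.30 to 1.33 on the log2 scale, and the narrowest that of Gbp7, -0.44 to 0.38.

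After MCAO the members were higher in aged than in young mice. Of the 9, 8 passed the threshold, all higher at 18 months, where 6.4% of all genes tested were higher and 4.51% lower (10.9% in either direction). The median log2 difference was 1.53, beside 0.02 over all genes. Irgm2 differed most, by 1.93 ± 0.32 (edgeR adjusted p = 0.00039), with group means of 26.0 ± 11.8 against 7.02 ± 3.37 CPM (SD, n = 6). Iigp1 was higher by 1.76 ± 0.29 (edgeR adjusted p = 0.000246), Gbp3 by 1.73 ± 0.30 (edgeR adjusted p = 0.000527) and Gbp2 by 1.67 ± 0.32 (edgeR adjusted p = 0.0013).

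The smallest difference past the threshold was that of Gbp7, 1.13 ± 0.17 (edgeR adjusted p = 0.000125), with means of 56.5 ± 17.3 against 25.7 ± 5.13 CPM. Gbp9, at 1.24 ± 0.44, did not pass (edgeR adjusted p = 0.0716), though it did with DESeq2 (1.26, adjusted p = 0.0465) and without library A of aged MCAO (1.38, edgeR adjusted p = 0.0474). Every aged MCAO library exceeded every young one for 7 of the 9 genes, Igtp and Gbp9 being the exceptions, where this held for 2.51% of all genes. Without libraries C, E and F of aged MCAO, which had the high haemoglobin transcripts, 6 genes passed. Gbp2 was then at 1.49 (edgeR adjusted p = 0.0594) and Igtp at 1.18 (edgeR adjusted p = 0.075).

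Whether the change of these genes after MCAO was larger at 18 months was read from the difference between the 2 log2 changes, as an interaction term. As the controls were not operated, this term covers the response to surgery as well as to ischaemia. The interaction term was above 0 for all 9 genes tested, from 0.74 for Irgm1 to 1.99 for Irgm2. Its median was 1.31 beside 0.01 over all genes. Of the 9, 0 passed the threshold with edgeR, where 0.0822% of all genes did (0.0411% in each direction). At an unadjusted p under 0.05, 7 of 9 passed, all but Gbp9 and Irgm1, beside 10.7% of all genes. Gbp7 came nearest, at 1.17 ± 0.26 with a 95% interval of 0.62 to 1.71 (edgeR unadjusted p = 0.000153, adjusted 0.0774). Irgm2 followed, at 1.99 ± 0.49 with an interval of 0.98 to 3.00 (edgeR unadjusted p = 0.000405, adjusted 0.0986).

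DESeq2 called these 2 (Gbp7 at 1.15, adjusted p = 0.0153, and Irgm2 at 1.98, adjusted p = 0.0146). Gbp7 also passed with edgeR without library A of young MCAO (1.22, adjusted p = 0.0493), without its library F (1.24, adjusted p = 0.0365), without library B of aged MCAO (1.24, adjusted p = 0.041) and without libraries A and C of young MCAO together (1.26, adjusted p = 0.0352). The larger response at 18 months thus stands as a difference in size whose call depends on the test and on single libraries. The 5 comparisons share groups of animals and are not independent of each other.

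**Figure D3:**
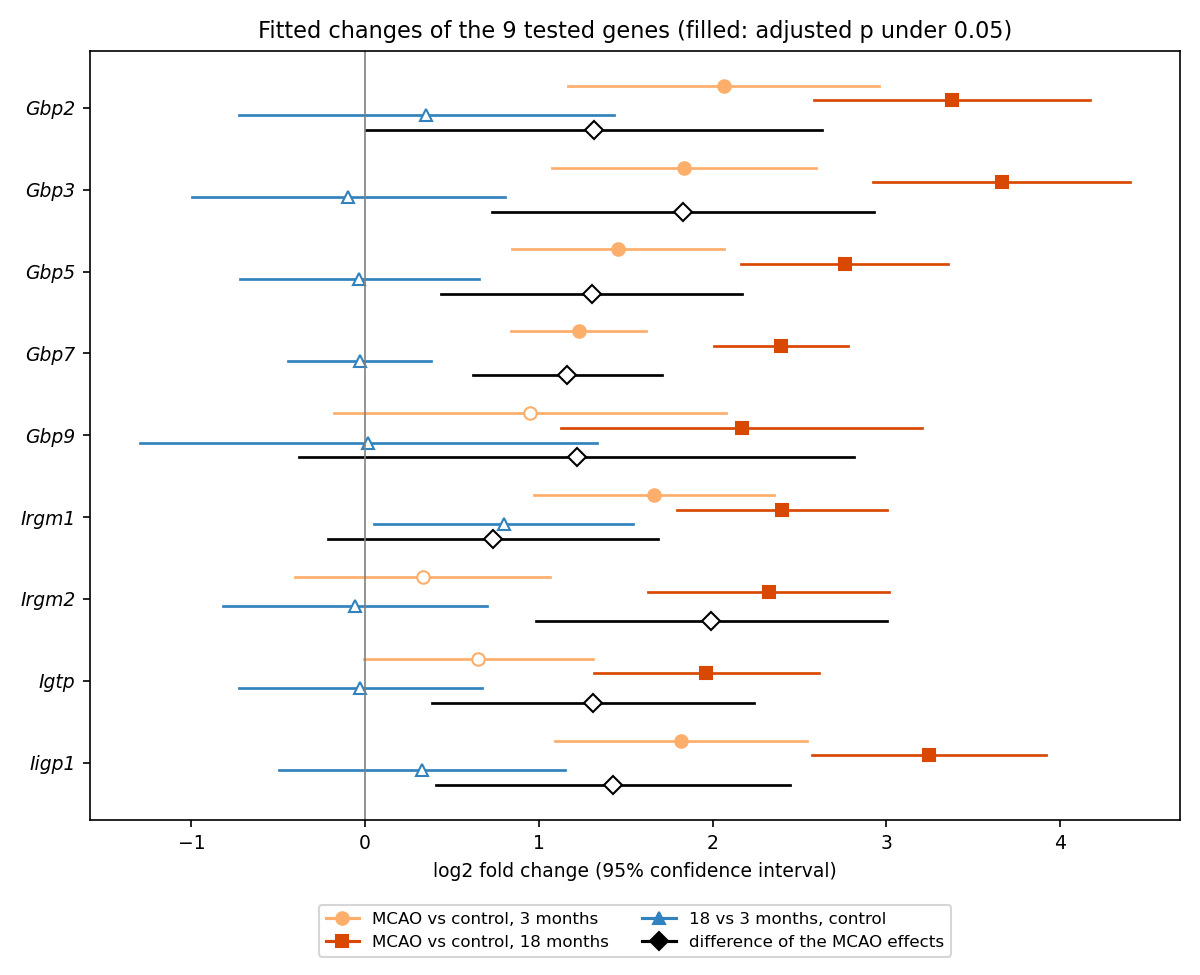
Log2 fold changes of the 9 tested genes with 95% confidence intervals: MCAO against control at 3 months (light circles) and 18 months (dark squares), 18 against 3 months in controls (blue triangles), and the difference between the MCAO effects (black diamonds). Filled symbols passed an adjusted p of 0.05. All squares and 6 of the 9 circles are filled, and no triangle or diamond is.

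The level of the family varied among animals of a group. Summed over the 10 genes, young controls held 27.7 to 40.4 CPM and aged controls 32.6 to 35.2 CPM. Young MCAO libraries held 62.7 to 97.0 CPM and aged ones 132 to 314 CPM. In aged MCAO, library C was highest for 6 of the 10 genes and D for 3, while B was lowest for 7. In young MCAO, library F was highest for 7 of the 10.

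Other transcripts moved with some of these libraries, and their part in the results was not tested. Library C of aged MCAO also held the most monocyte and macrophage (742 CPM), neutrophil (163 CPM), endothelial (779 CPM) and fibroblast (1301 CPM) transcripts of its group. Library D, which was second in the summed level of the 10 genes at 271 CPM, held the least monocyte and macrophage (380 CPM), neutrophil (52.2 CPM) and fibroblast (234 CPM) transcripts of the group. Its microglial transcripts, at 1071 CPM, were second to those of library A (1106 CPM), where library C held 941 CPM. It also held the most oligodendrocyte transcripts of the group (3378 CPM). Summed microglial markers were 690 to 1705 CPM in young and 865 to 1106 CPM in aged MCAO, and 2 of the 8 were higher at 18 months, among them Gpr34 by 0.54 ± 0.14 (edgeR adjusted p = 0.0166, or 0.0532 without library D of aged MCAO and 0.0662 without its libraries C, E and F). Of the monocyte and macrophage markers tested, 3 of 6 were higher in aged than in young MCAO, and of the neutrophil markers 2 of 6. So were 3 of 8 endothelial, 4 of 4 erythrocyte, 3 of 6 oligodendrocyte, 2 of 6 fibroblast and 1 of 8 astrocyte markers, and 2 of 8 neuronal markers were lower. Over all genes tested, 6.4% were higher and 4.51% lower. Between the control ages, 1 of 8 astrocyte markers was also higher at 18 months. The erythrocyte markers there had a median log2 difference of 2.50, though 0 of 4 passed. The group ranges of monocyte and macrophage and of neutrophil markers were 183 to 637 against 380 to 742 CPM, and 16.7 to 84.1 against 52.2 to 163 CPM.

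T and NK cells are the main makers of interferon gamma, and their markers were scarce. Of the 16, 15 fell under the filter on low counts. Cd3d had 6 counts in young MCAO, 4 of them in library E, and 17 in aged MCAO, 11 of them in library C. Cd3g had 1 count in young MCAO and 0 in aged MCAO, Cd3e had 7 and 3, Ncr1 1 and 2, and Cd8a 1 and 15, 8 of them in library C. Gzma, a granzyme, had 36 and 47 counts, against 1 and 0 in the controls, with 21 in library A of young MCAO and 20 in library C of aged MCAO. Summed T and NK markers ran from 12.0 to 30.8 CPM in young MCAO and 6.34 to 25.3 CPM in aged MCAO, most of it from Trbc2, which fell after MCAO at both ages and was highest in young controls (31.6 ± 6.60 CPM).

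**Figure D4:**
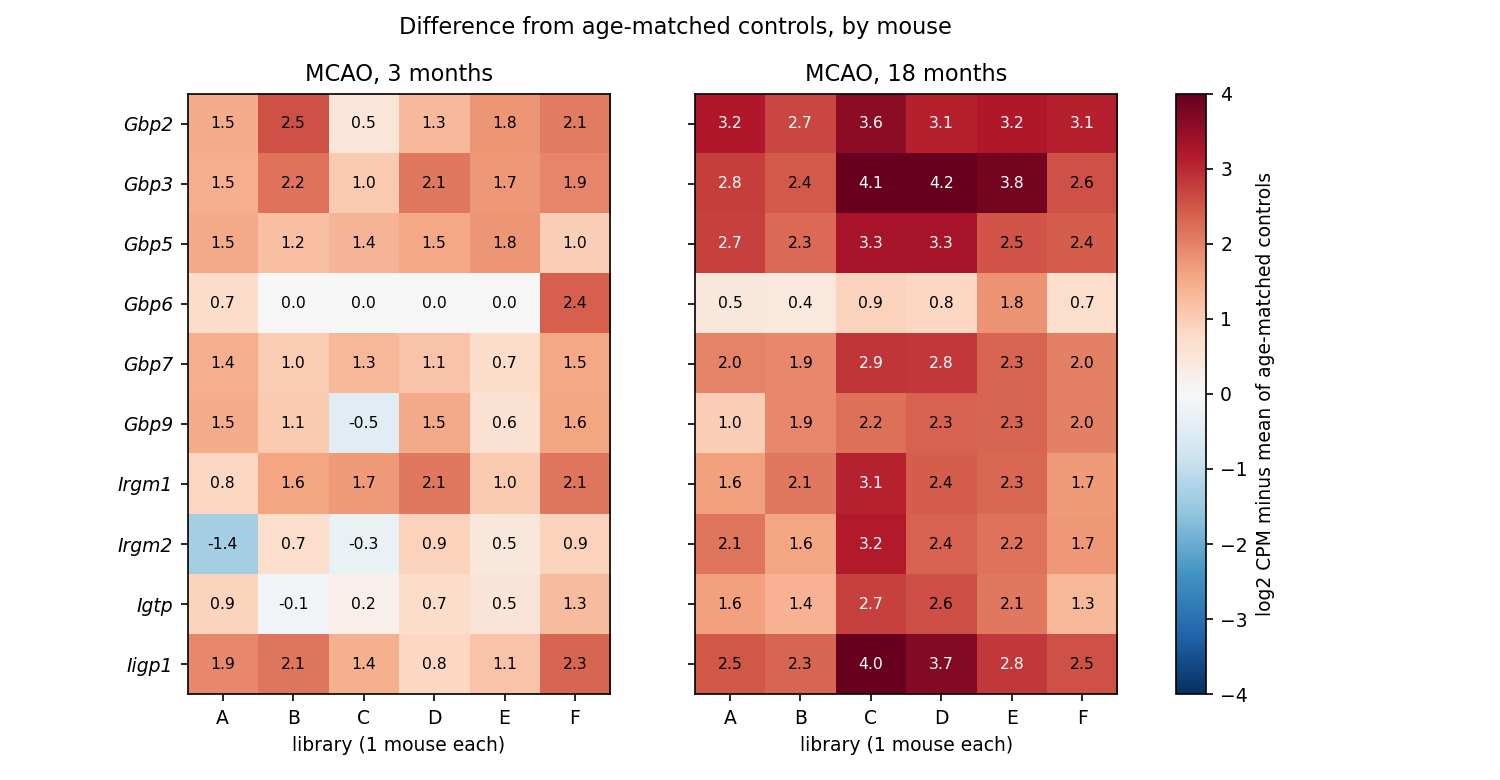
Difference in log2 CPM (prior count 2) of each MCAO library from the mean of the controls of its age, for the 10 genes, by mouse; red is higher and blue lower than in controls. Libraries C and D at 18 months hold the darkest cells, and Irgm2 is below its controls in libraries A and C at 3 months.

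After the group means were taken out, the 36 pairs of the 9 tested genes correlated over the 24 libraries between -0.30 (Gbp2 with Igtp) and 0.803 (Gbp7 with Iigp1), with a median of 0.227. Irgm2 with Igtp, whose promoter windows were alike, was at -0.0215, a value that pools controls with MCAO libraries. In library A of aged controls Igtp was the lowest of its group (1.26 CPM) and Irgm2 the highest (7.19 CPM). In library A of young MCAO Irgm2 was the lowest (1.79 CPM), with Igtp at 11.9 CPM. Within aged MCAO both genes fell in the order of libraries C, D, E and A, with B and F lowest. These correlations are descriptions over libraries that share depth and scaling. The 10 genes outside the families whose residual level was most like the members' mean included Isg15 (Pearson r = 0.78), Txndc17, Rbm7, Rnf213, Cops2, Rps24, Chek1, Ginm1 and Ifngr2 (0.69). The median r over all genes was 0.0202. The 10 were picked as the highest of 14599 genes, and whether values this high arise by chance was not tested. After MCAO, Cops2 (-0.04 at 3 months and -0.06 at 18 months) and Rbm7 (0.07 and 0.31) did not pass the threshold. Among the 10, Isg15 is a ubiquitin-like protein induced by type I interferon, and Ifngr2 is a chain of the interferon gamma receptor.

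The interferons that induce the families were hardly detected. Ifng, Ifnb1 and Ifna4 had 0 counts in all 24 libraries, which allows a level of up to 0.0225 CPM over 133.1 M gene counts and 0.079 CPM in aged MCAO alone. Of 20 interferon genes in the tables, 18 had 0 counts, Ifna9 had 2 and Ifnz had 3. Lower levels were not detectable at this depth.

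Of the 11 genes tested of the receptor and signalling list of interferon gamma, 6 rose and 1 fell at 3 months, and 7 rose and 0 fell at 18 months. Ifngr1, the ligand-binding chain, rose by 1.43 ± 0.17 and 1.54 ± 0.17 (edgeR adjusted p = 1.44e-07 and 2.38e-08). Ifngr2 was at 0.06 ± 0.12 at 3 months (edgeR adjusted p = 0.751) and rose by 0.59 ± 0.12 at 18 months (edgeR adjusted p = 0.000202). Irf1, a transcription factor needed for full induction of many GBPs, rose by 1.23 ± 0.20 and 1.86 ± 0.20 (edgeR adjusted p = 1.98e-05 and 1.92e-08). Irf8 rose by 2.68 ± 0.20 and 2.49 ± 0.19.

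Of the 8 genes tested of the type I interferon list, 6 rose at 3 months and 8 at 18 months. Ifnar1, a receptor chain, rose by 0.61 ± 0.15 and 0.71 ± 0.15. Irf9, a transcription factor that binds response elements, rose by 1.29 ± 0.18 and 2.29 ± 0.18, and Irf7 by 2.74 ± 0.52 and 4.79 ± 0.45. Ifnar2 rose by 1.12 ± 0.16 and 1.55 ± 0.16. With spike-in scaling Ifnar1 did not pass at either age (0.13 and 0.40, edgeR adjusted p = 0.679 and 0.207), nor did Ifngr2 at 18 months (0.28, edgeR adjusted p = 0.327).

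Genes listed as targets of either pathway also rose, and whether the lists tell the pathways apart was not tested. Of 6 interferon gamma targets tested, 5 rose at 3 months and 6 at 18 months, among them the immunoproteasome subunits Psmb8 (2.35 ± 0.27 and 3.39 ± 0.24) and Psmb9 (1.70 ± 0.29 and 3.08 ± 0.27) and the peptide transporter Tap1 (2.42 ± 0.32 and 3.32 ± 0.30). Nlrc5, which drives genes of antigen presentation, rose by 2.37 ± 0.58 and 4.61 ± 0.54. Cxcl9, a chemokine, had 6 counts in young and 49 in aged MCAO, 33 of them in library C, and 16 without it. Ciita, the master regulator of MHC class II genes, had 25 and 37, of which library A of young MCAO held 13 and library C of aged MCAO 18. Neither was tested. Of 8 type I targets tested, 6 rose at 3 months and 8 at 18 months. Ifit1 rose by 1.63 ± 0.46 and 3.98 ± 0.38, Ifit3 by 1.47 ± 0.28 and 3.12 ± 0.26, and Ifit2 was at 0.59 ± 0.27 at 3 months (edgeR adjusted p = 0.0825) and rose by 1.66 ± 0.25 at 18 months; the IFIT proteins bind foreign RNA. For 3 of the 8 the interaction passed the threshold: Isg15 (3.30 ± 0.57, edgeR adjusted p = 0.0271), the antiviral enzyme Rsad2 (2.54 ± 0.41, edgeR adjusted p = 0.0112) and Ifi44 (3.01 ± 0.60, edgeR adjusted p = 0.0452). Without library D of young controls and library C of young MCAO, which had the high choroid plexus transcripts, none of these 3 passed (3.07, 2.19 and 2.90, edgeR adjusted p = 0.111, 0.111 and 0.165). Over 33 alternative fits the call held in 21 for Isg15, 31 for Rsad2 and 15 for Ifi44, and it was lost for all 3 without library D of young controls alone (edgeR adjusted p = 0.0686, 0.0595 and 0.104). Summed type I targets were highest in libraries C (829 CPM) and D (666 CPM) of aged MCAO, which were also the highest for the members.

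**Figure D5:**
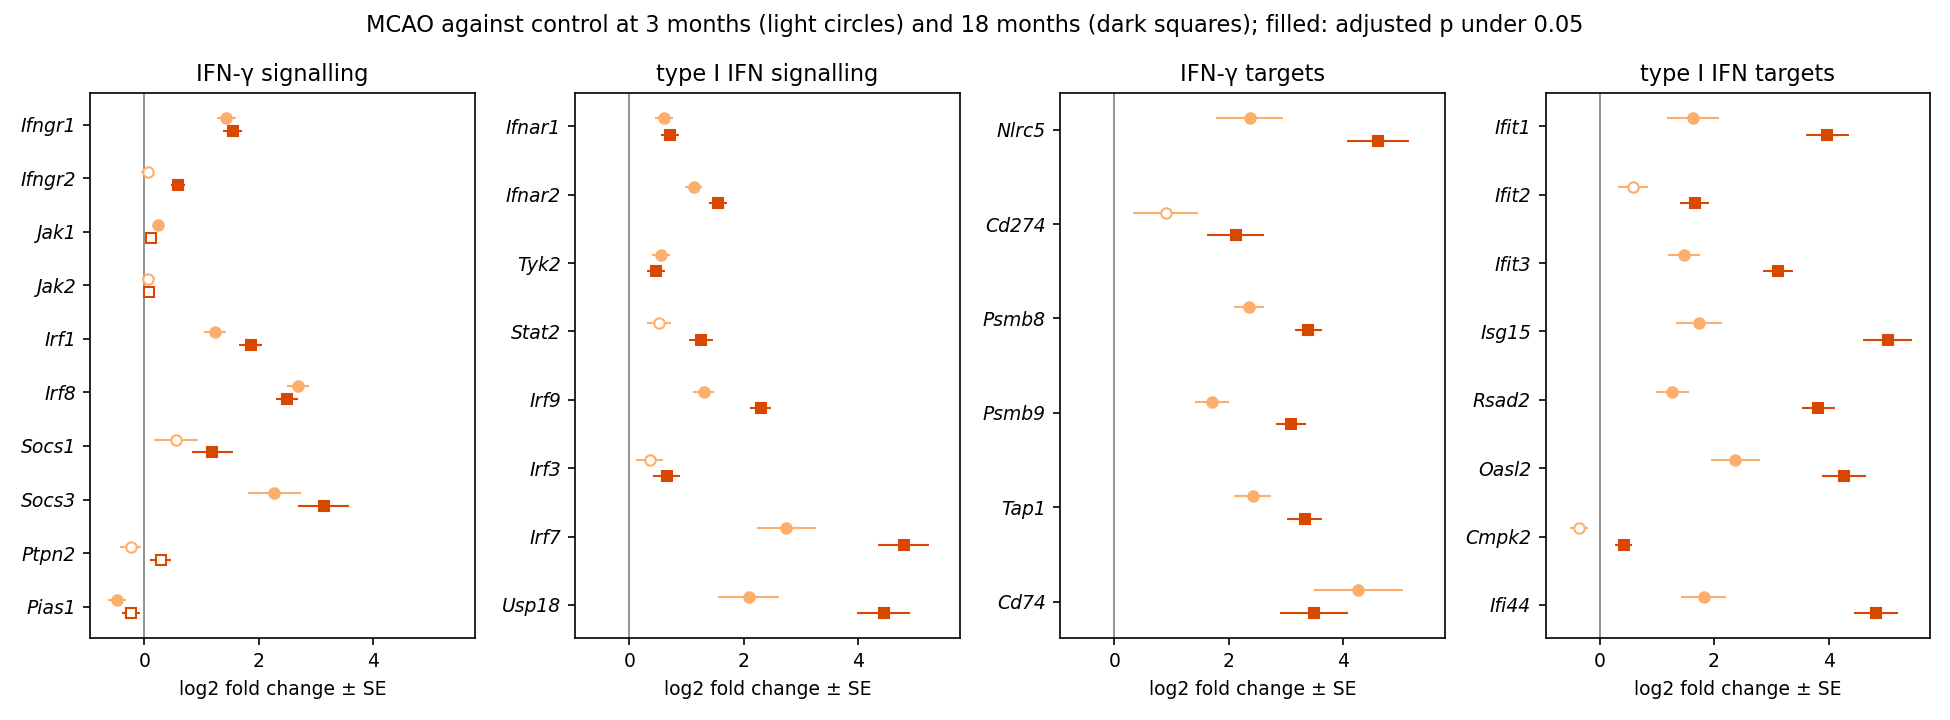
Log2 fold changes ± SE after MCAO at 3 months (light circles) and 18 months (dark squares) for genes of 4 interferon lists that were tested and are shown here; filled symbols passed an adjusted p of 0.05. All 8 type I targets are filled at 18 months, and Isg15 and Ifi44 are among those farthest from their 3-month value.

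Of 16 further GBP and IRG genes, 3 had enough counts for a test. Gbp4, a neighbour of Gbp9, was at -0.06 ± 0.38 at 3 months (edgeR adjusted p = 0.913) and rose by 2.43 ± 0.39 at 18 months (edgeR adjusted p = 1.09e-05), beside 0.33 ± 0.36 and 2.32 ± 0.34 for Irgm2. From 11.6% to 41.8% of the 50-base stretches at the end of Gbp4 transcripts occur in other genes, Gbp6 and Gbp9 among them. Reads from there cannot be assigned to Gbp4 alone. Gm4951, an IRG-like gene of chromosome 18, rose by 3.26 ± 0.76 and 3.16 ± 0.59 (edgeR adjusted p = 0.00129 and 8.54e-05). Library A held 77 of its 103 counts in young MCAO, and without A the mean there was 1.03 in place of 1.86 CPM. Irgq, an IRG-related gene that lacks GTPase activity, was at -0.28 ± 0.14 and -0.24 ± 0.14 (edgeR adjusted p = 0.121 and 0.168). Tgtp1 and Tgtp2, near copies of each other, had at most 2 counts in any group, and 57.4% to 100% of the 50-base stretches at the end of Tgtp1 transcripts occur in other genes. Gbp2b, next to Gbp2, had 18 counts in young and 63 in aged MCAO, against 12 and 2 in the controls. Of these, 15 lay in library D of young MCAO and 47 in library C of aged MCAO, and 4 of 6 libraries of each MCAO group had none. Gbp8 had 4 and 15, against 0 and 1. Gbp10 had 0 counts in all 24 libraries. However, 100% of the 50-base stretches at the end of its transcript also occur in Gbp6 or Gm43302. Reads from there cannot be assigned to Gbp10, so its level is uncertain.

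Gvin1, a very large interferon-inducible GTPase, had 1 count in all. The related antiviral GTPase Mx1 rose by 2.64 ± 0.64 and 5.08 ± 0.60 (edgeR adjusted p = 0.00188 and 9.13e-08). Mx2 was at 1.14 ± 0.46 at 3 months (edgeR adjusted p = 0.0533) and rose by 3.36 ± 0.47 at 18 months (edgeR adjusted p = 1.39e-06). Atlastins are membrane-fusing GTPases built like GBPs but not known as interferon targets. At 3 months Atl1 was at -0.35 ± 0.15, Atl2 at -0.45 ± 0.21 and Atl3 at 0.20 ± 0.14 (edgeR adjusted p = 0.0742, 0.0995 and 0.292). At 18 months Atl3 was at 0.40 ± 0.14 (edgeR adjusted p = 0.0216) and Atl1 at -0.62 ± 0.15 (edgeR adjusted p = 0.00185). Without libraries C, E and F of aged MCAO neither passed (0.33 and -0.51, edgeR adjusted p = 0.158 and 0.0571), and Atl3 also did not without library C of aged controls or without library C or E of aged MCAO alone (edgeR adjusted p = 0.0503, 0.0584 and 0.0559) or with spike-in scaling (0.10, edgeR adjusted p = 0.749).

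Transcripts of autophagy conjugation and of the placing of GBPs and IRGs on vacuoles did not rise as a list. Of 13, 2 rose and 2 fell at 3 months, where 20.1% of all genes tested rose and 17.3% fell. At 18 months 2 rose and 5 fell, where 23.7% of all genes rose and 21.5% fell. The conjugation factors Atg3 (-0.25 ± 0.19 and 0.08 ± 0.18), Atg5 (0.19 ± 0.10 and 0.21 ± 0.10) and Atg7 (0.20 ± 0.14 and -0.04 ± 0.14) did not pass at either age. Gabarap rose by 0.65 ± 0.16 and 0.69 ± 0.16, while Gabarapl1 fell at both ages, with changes of -0.62 ± 0.11 and -0.66 ± 0.11. With spike-in scaling Gabarap did not pass (0.19 and 0.40, edgeR adjusted p = 0.474 and 0.143), and at 18 months it did not without libraries C, E and F of aged MCAO (0.45, edgeR adjusted p = 0.0755). Its 3-month change was 0.38 without libraries A and C of young MCAO. Trim21, a cytosolic antibody receptor, rose by 2.59 ± 0.43 at 18 months (edgeR adjusted p = 1.89e-05). At 3 months it was at 1.65 ± 0.62 (edgeR adjusted p = 0.037), a call lost without any 1 of libraries A, C, D, E and F of young controls or C, E and F of young MCAO (edgeR adjusted p = 0.0522 to 0.128). The call was also lost without library D of young controls and library C of young MCAO together (1.62, edgeR adjusted p = 0.0913). Spike-in scaling ended it too (1.23, edgeR adjusted p = 0.104).

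Inflammasome genes, on which GBPs act in macrophages, rose in 7 of 8 cases at 3 months and 6 of 8 at 18 months. The adaptor Pycard rose by 3.52 ± 0.27 and 3.52 ± 0.26, the DNA sensor Aim2 by 2.16 ± 0.22 and 2.17 ± 0.22, and Nlrp3 by 1.73 ± 0.33 and 2.26 ± 0.33. Their median log2 change was 1.98 and 2.62. Between the MCAO groups, 3 of the 8 were higher at 18 months. Nlrc4 had 17 and 22 counts in young and aged MCAO and was not tested.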

How the data were processed

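Raw counts per gene were deposited for 24 libraries, 1 per animal (4 groups of 6, per the labels). The authors made these counts with Trimmomatic and HTSeq on GRCm38, per the submitters' processing notes, from QuantSeq 3′ forward libraries of 400 ng total RNA, per the labels' protocols; the sources used here give neither versions nor the aligner. Because reads come from the 3′ ends and lengths were not used, levels were not compared between genes. The 92 spike-ins and 5 summary lines were kept out of library sizes and tests (spike-ins 4.43% to 10.5%, unassigned reads without a feature 25.7% to 34.5%). Symbols were matched for 46488 of 46983 identifiers.

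The counts were fitted in edgeR 4.0.16 (R 4.3.3, limma 3.58.1) with TMM scaling, the filter filterByExpr at a minimum count of 10, 4 group means over all 24 libraries and robust quasi-likelihood F tests, two-sided, with Benjamini-Hochberg adjustment over the 14599 genes tested; 32384 were not tested. Standard errors were derived from the log2 change and its F value. The biological coefficient of variation was 0.207. The fit was checked on simulated data. Log2 CPM used a prior count of 2. The interval of a pooled ratio and the floor of 3 counts cover counting error only. Alternatives were other scalings, no filter, only the groups compared, a block, DESeq2 1.42.0 and libraries left out. The letters A to F were shown by the labels only as names of replicates.

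The members and gene lists were chosen with earlier results of these data known. The genes named are the 10 members, the first 3 of each list described, the 3 with the smallest p in a comparison and the 10 most like the members. Gbp10, Tgtp1, Tgtp2, Cd8a, Ncr1, Gzma, Gm43302 and Gm12185 fall outside this rule and were named after their values were seen. Some genes that this rule names are not reported here, though counts over a list include them. Protein sequences were not analysed here.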

Additional observations from a re-analysis of the deposited data

Results flagged for a closer look

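In 6 of the 39 combinations of a member and a group that were looked at, 1 library stood far from the other 5 by Dixon's criterion (critical value 0.625 for 6 samples), which by chance flags about 1 in 20 groups. Among young controls, Gbp2 was at 0 CPM in library A, where the others held 0.599 to 0.957 CPM, and Irgm1 was at 0.302 CPM in library B, where the others held 1.26 to 2.40 CPM. Among aged controls, Igtp was at 1.26 CPM in library A against 5.16 to 9.27 CPM. In young MCAO, Gbp6 was at 1.53 CPM in library F against 0 to 0.234 CPM. In aged MCAO, Gbp6 was at 1.11 CPM in library E against 0.197 to 0.436 CPM, and Gbp9 was at 1.49 CPM in library A against 3.15 to 4.38 CPM. The values of Gbp2, Gbp6, Gbp9 and Irgm1 rest on few counts per library.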

How the results depend on the processing

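The number of members called was 6 to 7 after MCAO at 3 months, 9 to 9 at 18 months, 0 to 0 between the control ages, 8 to 9 between the MCAO ages and 0 to 1 for the difference between the effects when 1 library was left out in turn, and 6 to 7, 8 to 9, 0 to 0, 6 to 9 and 0 to 2 under the other alternatives. For that difference, DESeq2 called 2 and the fit without libraries A and C of young MCAO called 1, in place of 0. Without the filter on low counts, Gbp6 was the added call at 3 months (3.85, edgeR adjusted p = 0.0371), with most of its young MCAO counts in library F. Leaving out libraries for their choroid plexus or haemoglobin transcripts was chosen after seeing the data.

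Signs turned where the difference was near 0. Irgm2 at 3 months was -0.052 with spike-in scaling. Between the control ages, spike-in scaling gave 0.032 for Gbp5 and 0.020 for Igtp, DESeq2 gave 0.0089 for Igtp, and the fit without the 2 choroid plexus libraries gave 0.18 for Gbp3 and 0.11 for Gbp7. With 1 library left out in turn, the control difference ran from -0.077 to 0.52 for Gbp2, -0.24 to 0.18 for Gbp3, -0.15 to 0.21 for Gbp5, -0.12 to 0.10 for Gbp7, -0.49 to 0.27 for Gbp9, -0.18 to 0.18 for Irgm2 and -0.16 to 0.21 for Igtp. The causes were not tested.

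Over the 36 same-lettered pairs of libraries the deviations from the group means correlated from -0.309 to 0.244, with 8 over 0.1. Between the MCAO groups all 6 were above 0 (0.0345 to 0.244) and 4 were over 0.1. As not every pair passed 0.1, the letters were not taken to pair the animals. With the replicate block the calls numbered 6, 9, 0, 8 and 0, and Irgm2 turned sign between the control ages, to 0.020.

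Over all genes, calls higher and lower between the control ages were 51 and 37, and became 33 and 6 with spike-in scaling, 113 and 113 with only the groups compared, 108 and 69 with DESeq2, and 104 and 81 without libraries A and C of young MCAO. Between the MCAO ages 934 and 659 became 646 and 25, and 382 and 225, under the first 2 of these, and 227 and 85 without libraries C, E and F of aged MCAO. For the difference between the effects, 6 and 6 became 55 and 62 with DESeq2, 91 and 44 without libraries A and C of young MCAO, 2 and 1 with spike-in scaling or without the haemoglobin libraries, and 0 and 1 without the choroid plexus libraries. Spike-in scaling moved the median of all genes by -0.45 at 3 months, -0.29 at 18 months, 0.21 between the MCAO ages and 0.16 for the difference between the effects. Depth limits the scarce members, Gbp2, Gbp6 and Gbp9 among them.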
